A study of Mus musculus with 9 samples.

Results

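The comparison described here sets the quadriceps muscle of treated knockout mice against that of wild-type mice. Its members are 6 of the 9 RNA sequencing libraries of the study, chosen by genotype and treatment, and all 13116 genes of the deposited table, of which 13089 passed the filter on low values and were tested. The wild-type group (WT_PBS) and the untreated knockout group (KO_PBS, which has the genotype GAA KO) received PBS, and the treated knockout group (KO_secGAA, also GAA KO) received the vector AAV8-sp7-delta8-hGAAco, an adeno-associated virus that provides a secreted form of the human enzyme as a transgene. Every mouse was male and 18 months old. PBS or vector was injected into a tail vein at 9 months of age, and muscle was taken 9 months after that. Each group has 3 mice with 1 library each. The sources used here do not give the promoter that drives the transgene, the vector dose or the knockout allele. No wild-type group received the vector, so what the vector does by itself and what remains of the knockout state cannot be told apart.

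Gaa encodes acid alpha-glucosidase, the lysosomal enzyme that splits glycogen into glucose, and its loss causes Pompe disease, in which glycogen fills the lysosomes of muscle fibres and autophagy stalls. A secreted form of the enzyme made in one organ can reach other organs through the blood and enter their lysosomes by receptor uptake. The question of the comparison is how far the muscle transcripts of knockout mice given the vector still differ from those of wild-type mice of the same age.

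The treated knockout libraries held 10495715 to 14406655 reads in the table and the wild-type libraries 15477523 to 15957106, so depth differed between the groups without overlap. One read was worth a normalized count of 0.0685 to 0.0922 in these 6 libraries. The mitochondrial share of reads was 11.4% to 12.2% in treated mice and 11.6% to 17.04% in wild-type mice, and the 20 most abundant genes took 33.2% to 34.8% and 37.2% to 38.0%. The part of depth and composition in the results below was not tested. Acta1, Ckm, Myh4 and the other muscle fibre markers were present in every library, with summed normalized counts of 172770 to 192820 in treated and 191130 to 229540 in wild-type mice. On the first principal component, which held 40.6% of the variance, the wild-type mice lay at -40.6 to -33.8, the untreated knockout mice at 23.8 to 37.3, and treated mice 1, 2 and 3 at 10.8, 6.47 and -1.36. Treated mouse 3 therefore lay nearest to the wild-type mice on this component. On the second component, which held 14.6%, WT_PBS mouse 1 stood apart from the other wild-type mice, at 20.2 against -13.0 and -17.2. Treated mice 1, 2 and 3 lay there at 20.6, 29.5 and -11.1, so WT_PBS mouse 1 lay near treated mouse 1.

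Between treated knockout and wild-type muscle, 487 of 13089 genes were called, which is 3.72% of the genes tested. A gene is called, and is said to have risen or fallen in treated knockout relative to wild-type muscle, where limma's p-value, adjusted by Benjamini-Hochberg over all genes tested, was under 0.05. Of the 487, 239 genes rose (1.83%) and 248 fell (1.89%). A change of at least 2-fold was found for 187 genes (1.43%), of which 116 rose and 71 fell. The median absolute log2 fold change of the called genes was 0.855, and 456 of them were protein coding. The median log2 fold change of all genes tested was 0.00. In all 487 called genes the 3 treated mice lay on one side of the 3 wild-type mice, which was also the case for 3515 genes or 26.9% of those tested. Between KO_secGAA and KO_PBS the same fit called 481 genes (3.67%), 179 of them higher (1.37%) and 302 lower (2.31%) in the treated mice, and between KO_PBS and WT_PBS it called 2867 (21.9%). These comparisons share libraries, so their counts are given side by side only.

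The number of called genes changed when single mice were left out. It fell to 94 without WT_PBS mouse 3, to 143 without KO_secGAA mouse 2, to 181 without KO_secGAA mouse 1 and to 209 without WT_PBS mouse 2, and was 457 without WT_PBS mouse 1 and 503 without KO_secGAA mouse 3. Leaving out a mouse also makes its group smaller, and the part of that in these counts was not tested. Genes that rose made up 49.1% of the called genes. That share was 63.8% without WT_PBS mouse 3, 63.6% without KO_secGAA mouse 2 and 86.2% without the scaling factors. Without these factors the median log2 fold change of all genes was 0.155. The p-values measure the spread between these mice only.

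**Figure D1:**
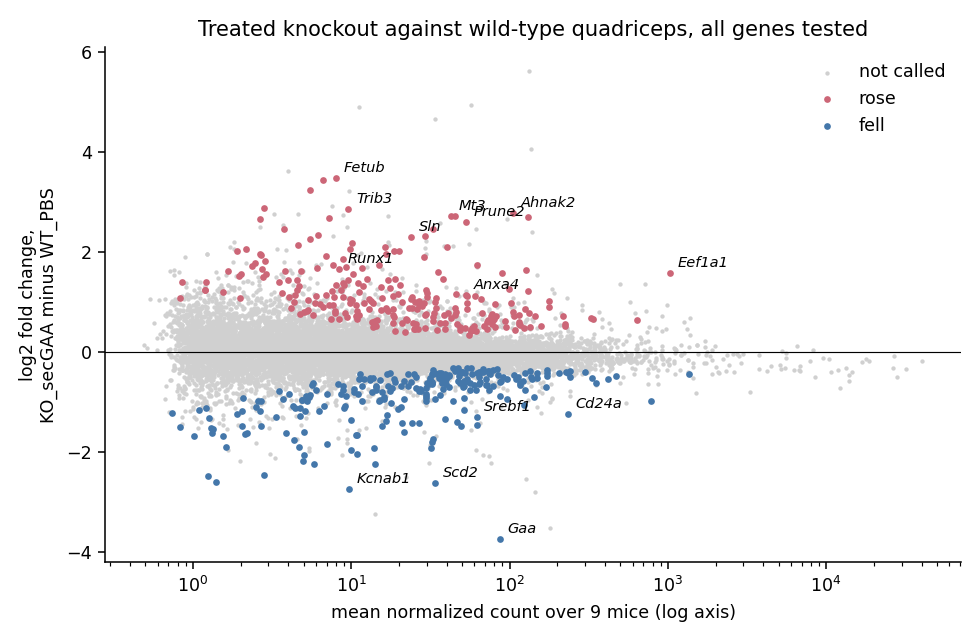
Log2 fold change of treated knockout against wild-type quadriceps (vertical axis) by mean normalized count over the 9 mice (horizontal log axis), 1 point per gene tested. Red points are the 239 genes that rose and blue points the 248 that fell, and named genes include Gaa, the lowest called point at -3.74, and Fetub, the highest called point at 3.49.

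Gaa itself was the largest fall. In normalized counts, Gaa (ENSMUSG00000025579, GRCm38 chr11:119267887-119285454) stood at 296, 129 and 264 in the 3 wild-type mice and at 15.1, 15.6 and 16.6 in the 3 treated knockout mice. The groups lay far apart, and the untreated knockout mice, at 17.8, 14.5 and 14, lay at the level of the treated ones. The log2 fold change against wild type was -3.74 ± 0.26 (SE), or 13.3-fold lower, with an adjusted p of 0.000204 by limma. Against KO_PBS the log2 difference was 0.04 ± 0.26 (adjusted p = 0.96). The table counts reads of the mouse gene as a whole, so the value checks the genotype labels, which all 6 libraries matched, and it does not measure the human transgene.

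The other genes with the smallest p-values were Prune2, Fetub, Kcnk5 and Anxa4, which rose, and Scd2, which fell. Prune2 (chr19:16956118-17223932), whose protein carries a BCH domain, read 6.75, 9.17 and 6.55 in wild-type and 57.6, 44.5 and 42.2 in treated mice, 6.09-fold higher (log2 2.61 ± 0.15 SE, adjusted p = 0.000138). Kcnk5 (chr14:20140057-20181809), a potassium channel of the leak type, read 1.06, 0.597 and 0.629 in wild-type and 6.68, 7.74 and 8.04 in treated mice, 6.39-fold higher (log2 2.68 ± 0.18, adjusted p = 0.000164). Fetub (chr16:22918334-22939778) encodes fetuin B, a secreted inhibitor of proteases best known from the liver. It had 6, 0 and 4 reads in the wild-type libraries against 76, 82 and 136 in the treated ones, and its log2 difference of 3.49 ± 0.23 depends on the offset added to such low values. Of 12 liver markers, 9 with Alb and Apoa1 among them were not among the genes tested, and the summed level of the 3 that were was 26.6 to 94.1 in treated and 55.9 to 279 in wild-type mice.

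Scd2 (chr19:44293674-44306864), a stearoyl-CoA desaturase that makes monounsaturated fatty acids, read 65.5, 69.5 and 82.3 in wild-type and 14.0, 11.9 and 8.83 in treated mice. It was 6.11-fold lower (log2 -2.61 ± 0.19, adjusted p = 0.000223), and the untreated knockout mice read 15.1, 14.9 and 21.9. Anxa4 (chr6:86736840-86793584), a calcium-dependent phospholipid-binding protein, read 20.4, 18.6 and 19.8 in wild-type, 47.0, 40.4 and 44.8 in treated and 96.5, 97.4 and 94.2 in untreated knockout mice, so that no group overlapped another. Its log2 difference from wild type was 1.15 ± 0.08 (adjusted p = 0.000223). The calls of Gaa, Prune2, Kcnk5, Fetub, Anxa4 and Scd2 held whichever of the 9 mice was left out, with adjusted p up to 0.00296.

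The 12 largest rises among genes with a group mean of at least 5 were Fetub, Cdkn2a, Trib3, Ahnak2, Rrad, Mt3, Ctxn3, Kcnk5, Prune2, Mthfd2, Myl4 and Sln, with log2 differences from 2.30 to 3.49. The 12 largest falls were Gaa, Kcnab1, Scd2, Tiam1, Itga4, Efcab6, Cdh4, Dkk3, Slc15a5, Pla2g7, Aurka and Aqp4, with -3.74 to -1.90. In 6 of these 12 risen genes, Fetub, Ahnak2, Kcnk5, Mt3, Prune2 and Sln, every treated mouse lay between the wild-type and the untreated knockout mice, and in the other 6 the treated mice overlapped or exceeded the untreated knockout mice. Ctxn3, a small membrane protein of the cortexin family, read 43.8, 20.7 and 29.0 in wild-type mice, 186, 189 and 218 in treated mice and 143, 188 and 158 in untreated knockout mice. Its level in treated mice was 6.53-fold above wild type (log2 2.71 ± 0.22, adjusted p = 0.000499) and differed from KO_PBS by 0.28 ± 0.22 (adjusted p = 0.55). Rrad, a small GTPase that inhibits calcium channels, read 33.2, 49.6 and 37.2 in treated and 6.20, 8.75 and 3 in wild-type mice, 6.65-fold higher (log2 2.73 ± 0.49, adjusted p = 0.0185). The call of Rrad ended without KO_secGAA mouse 1 or 2 or WT_PBS mouse 3 (adjusted p up to 0.0802), and that of Ctxn3 held.

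Kcnab1, a regulatory subunit of voltage-gated potassium channels, fell 6.65-fold, from 34.9, 18.4 and 21.4 in wild-type mice to 1.89, 4.15 and 4 in treated mice (log2 -2.73 ± 0.31, adjusted p = 0.00293). Slc15a5, a carrier of the peptide transporter family, read 13.5, 27.4 and 27.2 in wild-type and 4.93, 4.76 and 5.87 in treated mice, and Efcab6, an EF-hand protein, read 9.08, 12.1 and 13.8 against 1.61, 2.05 and 2.99. For these 3 genes the untreated knockout mice lay lower still, at 0.414 to 0.881, 1.86 to 2.32 and 0.781 to 1.46. Itga4, the alpha 4 chain of integrins, took another pattern: wild-type mice read 10.04, 12.8 and 15.5, treated mice 2.72, 2.23 and 1.98 and untreated knockout mice 1.86, 2.32 and 2.71. Its log2 difference was -2.23 ± 0.20 against wild type (adjusted p = 0.000793) and 0.01 between treated and untreated knockout mice (adjusted p = 0.99). Tiam1, an exchange factor that activates Rac, and Pla2g7, the plasma enzyme that degrades platelet-activating factor, likewise read 0.568 to 1.24 and 14.1 to 16.2 in treated mice against 4.42 to 8.92 and 48.1 to 74.8 in wild-type mice, with untreated knockout mice at 0.506 to 0.985 and 15.3 to 27.0. The calls of Kcnab1, Slc15a5, Efcab6, Itga4, Tiam1 and Pla2g7 held without any 1 mouse (adjusted p up to 0.0251). Those of Cdh4 and Dkk3 ended without KO_secGAA mouse 1 or 2 or WT_PBS mouse 3, that of Aurka without WT_PBS mouse 3, and that of Aqp4 without any of 6 mice (KO_PBS 2 or 3, KO_secGAA 2 or 3, WT_PBS 2 or 3), with adjusted p up to 0.124.

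**Figure D2:**
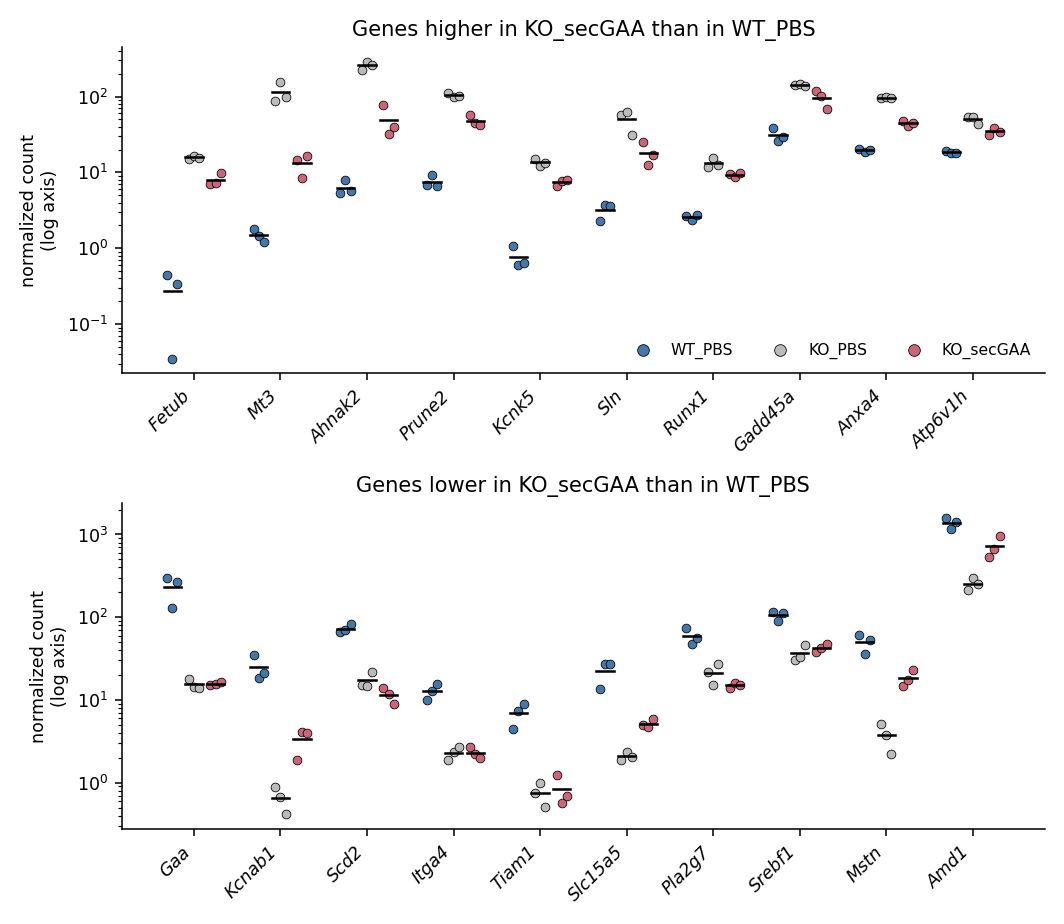
Normalized counts by mouse (vertical log axis) of 10 genes that rose and 10 that fell in treated knockout against wild-type quadriceps, with 3 mice per group as points and group means as lines. For Mt3 the treated mice lie between the other groups, and for Itga4 they lie at the level of the untreated knockout mice.

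The lysosome is the compartment of the missing enzyme. Of 55 lysosomal hydrolases and membrane proteins tested, 3 rose and none fell, 5.455% called beside 3.72% of all genes tested. Their median log2 difference was 0.06, beside 0.00 over all genes tested and beside 0.33 in KO_PBS against WT_PBS. Ctsl, the protease cathepsin L, read 80.7, 81.5 and 75.7 in wild-type and 139, 153 and 106 in treated mice, 1.65-fold higher (log2 0.73 ± 0.13, adjusted p = 0.0195). Lamp2, a major protein of the lysosomal membrane that autophagy needs, and Cd63, a tetraspanin of late endosomes, rose by 0.49 ± 0.09 and 0.51 ± 0.11 (adjusted p = 0.022 and 0.0322). Hexa, the alpha subunit of beta-hexosaminidase, stood at 80.7, 90.9 and 82.1 against 64.4, 60.8 and 56.6 and missed the threshold (log2 0.48 ± 0.12, adjusted p = 0.0567). Lamp1 and Ctsd, the other major membrane protein and the protease cathepsin D, had log2 differences of -0.06 ± 0.10 each (adjusted p = 0.751 and 0.785). The list average of treated mouse 3 was -0.06, within the wild-type range of -0.07 to 0.11, and those of treated mice 1 and 2 were 0.20 and 0.17. All 3 calls ended without KO_secGAA mouse 2, WT_PBS mouse 2 or WT_PBS mouse 3 (adjusted p up to 0.121), those of Ctsl and Lamp2 also without KO_secGAA mouse 1, and that of Cd63 also without KO_secGAA mouse 3 or KO_PBS mouse 2.

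The vacuolar proton pump acidifies the lysosome. Of 17 tested members 2 rose and 1 fell, 17.65% called beside 3.72% of all genes tested, with a list median of 0.06. Atp6v1h, a regulatory subunit of the cytosolic sector, read 19.2, 18.1 and 18.2 in wild-type, 31.1, 38.9 and 33.8 in treated and 53.2, 53.9 and 43.9 in untreated knockout mice. The treated mice were 1.84-fold above wild type (log2 0.88 ± 0.11, adjusted p = 0.00428). Atp6ap2, an accessory protein needed to assemble the pump, was 1.73-fold higher (18.9, 18.4 and 20.2 against 31.2, 35.4 and 34.0, adjusted p = 0.00647). Both calls held without any 1 mouse (adjusted p up to 0.0347). Atp6v0a2, a membrane subunit found mostly in Golgi and endosomes, fell by 0.43 ± 0.09 (adjusted p = 0.034), a call that ended without any of 6 mice (KO_PBS 2, KO_secGAA 2 or 3, WT_PBS 1, 2 or 3; adjusted p up to 0.132) and without the scaling factors.

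Of 39 autophagy genes 2 rose and 1 fell, 7.69% called beside 3.72% of all genes tested, with a median of 0.02. Map1lc3a, an LC3 protein that coats autophagosomes, read 237, 226 and 241 in wild-type and 340, 385 and 395 in treated mice (log2 0.67 ± 0.10, adjusted p = 0.0109), and its relative Gabarapl1 rose by 0.76 ± 0.17 (adjusted p = 0.0402). Tfeb, the transcription factor that switches on lysosomal and autophagy genes, fell from 108, 94.5 and 109 to 72.8, 77.4 and 77.5 (log2 -0.45 ± 0.09, adjusted p = 0.0227), and the untreated knockout mice read 70.0 to 78.8. Sqstm1, the cargo receptor p62, read 842, 906 and 986 in treated and 795, 557 and 637 in wild-type mice and missed the threshold (log2 0.47 ± 0.14, adjusted p = 0.0923). The 3 calls ended without WT_PBS mouse 3, that of Map1lc3a there only, and those of Tfeb and Gabarapl1 also without KO_secGAA mouse 1 or 2 or WT_PBS mouse 1, and Gabarapl1 without KO_secGAA mouse 3 or WT_PBS mouse 2 too (adjusted p up to 0.14). The Tfeb call also ended without the scaling factors. None of 11 galectins and lysosomal damage genes was called. At an unadjusted p under 0.05 by limma 3 passed, and DESeq2 called 1, beside 2818 and 1022 of all 13089 genes tested. The smallest p of this list was that of Lgals3, a lectin that gathers on broken lysosomes and is also a macrophage product. Lgals3 read 19.3, 15.1 and 8.54 in treated, 8.53, 6.64 and 6.92 in wild-type and 86.6, 88.3 and 64.9 in untreated knockout mice (log2 0.85 ± 0.25 against wild type, adjusted p = 0.0952), and it was called without KO_secGAA mouse 3, the treated mouse nearest to wild type.

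Among 23 genes of glycogen synthesis and breakdown, 2 rose and none fell, 8.70% called beside 3.72% of all genes tested. Their median was -0.07, and 0.08 without the scaling factors. Gbe1, the branching enzyme, read 59.4, 93.0 and 62.4 in wild-type, 140, 119 and 107 in treated and 215, 171 and 226 in untreated knockout mice (log2 0.79 ± 0.18, adjusted p = 0.0432). Ppp1r3d, which targets a phosphatase to glycogen, read 1.75, 2.21 and 1.295 against 5.58, 5.99 and 4.58 in treated mice (log2 1.40 ± 0.32, adjusted p = 0.043). Gys1, the muscle glycogen synthase, and Pygm, the muscle phosphorylase, differed by -0.17 ± 0.11 and -0.37 ± 0.16 (adjusted p = 0.393 and 0.21). Of 24 glycolysis genes 2 rose (8.33% called, beside the same 3.72%), and the list median was -0.17. They were the hexokinase Hk1 (log2 0.60 ± 0.13, adjusted p = 0.0342) and the glucose transporter Slc2a1 (0.89 ± 0.21, adjusted p = 0.0461). The calls of Gbe1, Ppp1r3d, Hk1 and Slc2a1 ended without KO_secGAA mouse 1 or 2 or WT_PBS mouse 3, and some of them without KO_PBS mouse 1, 2 or 3, KO_secGAA mouse 3 or WT_PBS mouse 1 or 2 (adjusted p up to 0.159). The energy lists had no called member among 51 nuclear genes of oxidative phosphorylation, 20 of the TCA cycle, 24 of fatty acid oxidation and 25 of insulin signalling. At an unadjusted p under 0.05 by limma, 4, 3, 0 and 3 of them passed, beside 2818 of all 13089 genes tested. DESeq2 called 1, 0, 0 and 0 of them, beside 1022 of all genes tested. The median of the oxidative phosphorylation genes was -0.15, and 0.01 without the scaling factors.

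**Figure D3:**
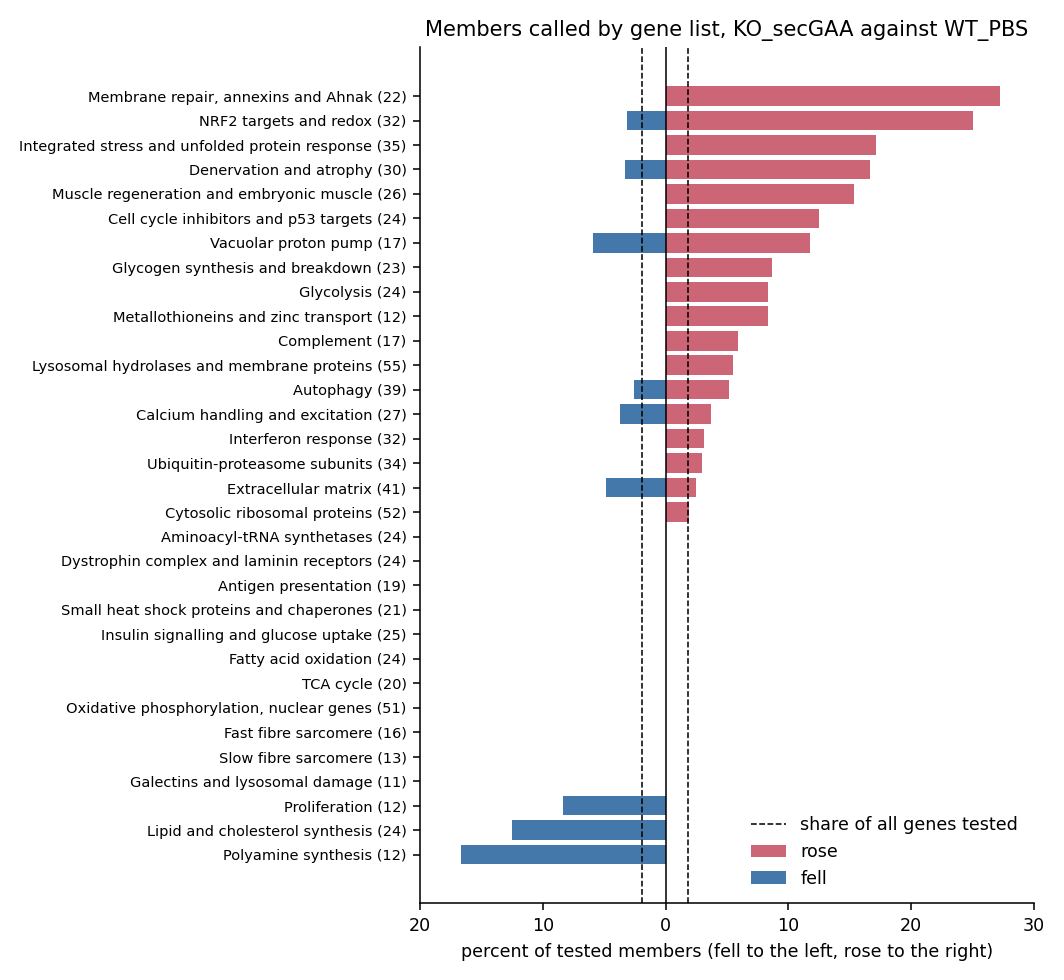
Percent of tested members that rose (right) or fell (left) in treated knockout against wild-type quadriceps for 32 functional gene lists, with the number tested in brackets. Dashed lines mark the shares over all genes tested, 1.83% and 1.89%.

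The membrane repair list had the largest share of risen members among the functional lists. Annexins and S100 proteins bind damaged membrane in a calcium-dependent way, and Ahnak is a giant scaffold beneath the plasma membrane. Of 22 members 6 rose and none fell, 27.3% called beside 3.72% of all genes tested, with a median of 0.35. Ahnak2, a relative of Ahnak, read 5.38, 7.83 and 5.74 in wild-type, 77.1, 32.3 and 39.2 in treated and 227, 284 and 261 in untreated knockout mice. It was 6.91-fold above wild type (log2 2.79 ± 0.28, adjusted p = 0.00147). Ahnak rose by 0.67 ± 0.10 (adjusted p = 0.0109), S100a4 by 1.12 ± 0.19 (adjusted p = 0.0158), Anxa1 by 1.08 ± 0.19 (adjusted p = 0.0159) and Anxa2 by 0.97 ± 0.18 (adjusted p = 0.0222), beside Anxa4 above. The list average was 0.39 to 0.57 in the treated mice, -0.02 to 0.02 in wild-type mice and 0.97 to 1.27 in untreated knockout mice (log2 units from the wild-type mean), so the 3 groups stood in separate ranges. Averages of treated and wild-type mice did not overlap in 16 of the 48 lists, 10 above and 6 below wild type. Members called numbered 2 without WT_PBS mouse 3, where the calls of Ahnak, S100a4, Anxa1 and Anxa2 ended, and 3 without KO_secGAA mouse 1. Anxa2 and Anxa1 also lost their calls without KO_secGAA mouse 2, and Anxa2 without WT_PBS mouse 2 (adjusted p up to 0.0967).

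Genes of muscle regeneration and embryonic muscle, which adult fibres switch on when they regrow or lose their nerve supply, had a median of 0.78 beside 1.17 in KO_PBS against WT_PBS. Of 26 tested members 4 rose and none fell, 15.4% called beside 3.72% of all genes tested. Runx1, a transcription factor induced in denervated and damaged muscle, read 2.64, 2.35 and 2.78 in wild-type and 9.54, 8.79 and 9.69 in treated mice, 3.19-fold higher (log2 1.67 ± 0.14, adjusted p = 0.000499). The untreated knockout mice read 11.9, 15.6 and 12.5. Myl4, the embryonic myosin light chain, rose 5.01-fold (3.05, 5.87 and 6.85 against 26.0, 38.2 and 19.9, adjusted p = 0.012). Ncam1, the neural adhesion molecule of immature fibres, rose by 1.09 ± 0.22 (adjusted p = 0.0302) and Nes, the intermediate filament nestin, by 0.66 ± 0.15 (adjusted p = 0.0408). H19 and Chrna1 had log2 differences of 0.83 ± 0.30 and 0.61 ± 0.21 and missed the threshold (adjusted p = 0.145 and 0.13). The Runx1 call held without any 1 mouse. Myl4 lost its call without KO_secGAA mouse 2, Ncam1 without any treated mouse or WT_PBS mouse 2 or 3, and Nes without any 1 of the 9 mice (adjusted p up to 0.117).

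In the denervation and atrophy list 5 of 30 members rose and 1 fell, 20% called beside 3.72% of all genes tested. The list median was 0.15. Mt3, a metallothionein, is in this list and was 6.64-fold higher: wild-type mice read 1.82, 1.44 and 1.22, treated mice 14.6, 8.44 and 16.2 and untreated knockout mice 87.7, 154 and 97.4 (log2 2.73 ± 0.27, adjusted p = 0.00147). Its relatives Mt1 and Mt2 ranged from 14.3 to 72.6 and from 5.66 to 52.7 in wild-type mice, which spanned the treated mice at 28.2 to 46.4 and 31.9 to 37.5, and differed by 0.22 ± 0.58 and 0.94 ± 0.64 (adjusted p = 0.864 and 0.426). Sln, or sarcolipin, which slows the calcium pump of the sarcoplasmic reticulum, read 2.30, 3.76 and 3.59 against 25.3, 12.5 and 17, 4.94-fold higher (adjusted p = 0.00616). Gadd45a, a stress-induced gene of atrophying muscle, read 38.7, 25.7 and 29.4 against 117, 103 and 67.8, 3.01-fold higher (adjusted p = 0.00387). The receptor Eda2r rose by 1.46 ± 0.25 (adjusted p = 0.0158) and the deaminase Ampd3 by 0.71 ± 0.16 (adjusted p = 0.044).

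Mstn encodes myostatin, the secreted inhibitor of muscle growth, and was the member of the denervation list that fell. It read 61.5, 35.7 and 53.1 in wild-type mice, 14.6, 17.4 and 23 in treated mice and 5.12, 3.82 and 2.25 in untreated knockout mice. The treated group was 2.67-fold below wild type (log2 -1.41 ± 0.28, adjusted p = 0.0282). The calls of Mt3, Sln and Gadd45a held without any 1 mouse (adjusted p up to 0.0257), as given above for Runx1. That of Eda2r ended without KO_secGAA mouse 1 or WT_PBS mouse 2 or 3 (up to 0.0774), that of Mstn without KO_secGAA mouse 1 or 2 or WT_PBS mouse 1 or 3 (up to 0.11), and that of Ampd3 without any 1 mouse but KO_secGAA mouse 3 (up to 0.14).

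None of 13 sarcomere genes of slow fibres was called, and their median was 1.36. At an unadjusted p under 0.05 by limma 8 passed, and DESeq2 called 1, beside 2818 and 1022 of all 13089 genes tested. Myh7, the slow myosin heavy chain, read 0.651, 32.9 and 1.22 in wild-type and 94.1, 15.6 and 203 in treated mice (log2 4.07 ± 1.32, adjusted p = 0.115). The groups overlapped, with wild-type mouse 2 above treated mouse 2, and without WT_PBS mouse 2 Myh7 was called. Casq2, a calcium-storing protein of slow and cardiac muscle, read 6.48, 10.9 and 7.66 in wild-type and 19.7, 15.7 and 16.8 in treated mice without overlap and missed the threshold (log2 1.04 ± 0.26, adjusted p = 0.0567). The list average ran from -1.34 to 1.38 in wild-type mice and from 0.65 to 2.29 in treated mice. Of 16 fast fibre sarcomere genes none was called, with a median of -0.18 that was 0.10 after quantile normalization. At an unadjusted p under 0.05 by limma 3 passed, and DESeq2 called 3, beside the same 2818 and 1022. In bulk muscle, fewer cells or fibres of a type and less RNA per cell cannot be told apart. Of 27 calcium handling and excitation genes 1 rose and 1 fell, 7.41% called beside 3.72% of all genes tested. Kcnab1 fell, as given above, and the potassium channel Kcnq5 rose by 0.86 ± 0.15 (adjusted p = 0.0158). The Kcnq5 call ended without KO_secGAA mouse 1 or WT_PBS mouse 3 (up to 0.0752).

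Through the integrated stress response cells react to amino acid shortage, misfolded protein or failing mitochondria. Of 35 genes of this response and of the unfolded protein response, 6 rose and none fell, 17.1% called beside 3.72% of all genes tested. The list median was 0.34, beside 0.54 in KO_PBS against WT_PBS. Trib3, a pseudokinase induced by ATF4 and CHOP, read 0.857, 1.09 and 0.925 in wild-type and 11.5, 16.4 and 5.37 in treated mice, 7.28-fold higher (log2 2.86 ± 0.46, adjusted p = 0.0121). Mthfd2, a mitochondrial enzyme of folate metabolism, read 10.5, 5.45 and 5.81 against 46.3, 54.9 and 26.2, 5.52-fold higher (log2 2.47 ± 0.38, adjusted p = 0.0109). In both genes treated mouse 2 was highest and treated mouse 3 lowest, and all 3 treated mice lay above the wild-type mice.

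The stress response also includes secreted factors. Fgf21, a hormone that stressed muscle can release, had 2, 2 and 0 reads in the wild-type libraries and 31, 91 and 40 in the treated ones (adjusted p = 0.0125), and the wild-type reads lie at or under 3 reads per library, so no fold is given. Gdf15, another stress hormone, read 0.377, 0.878 and 1.15 against 5.39, 8.61 and 2.70, 4.42-fold higher (log2 2.14 ± 0.41, adjusted p = 0.0232). The transcription factors Atf5 and Xbp1 rose by 1.07 ± 0.24 and 0.64 ± 0.13 (adjusted p = 0.0409 and 0.0288). Asns, the asparagine synthetase that ATF4 switches on, read 15.2, 38.1 and 8.25 against 4.22, 3.83 and 2.48 and missed the threshold (log2 2.15 ± 0.52, adjusted p = 0.0512), though the groups did not overlap. No member of the list was called without WT_PBS mouse 3, and 2 were called without KO_secGAA mouse 2, 3 without KO_secGAA mouse 1 and 11 without KO_secGAA mouse 3. The highest adjusted p of the 6 genes when 1 mouse was left out was 0.137.

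The element TGATGNAA, to which ATF4 and C/EBP factors bind as pairs, was searched for on both strands of the RefSeq promoters of build GRCm38.p6, which run from 250 bases before to 50 bases after each start. It stood in 9 of the 32 list members with a promoter in that table and in 2 of the 6 called ones, Fgf21 and Trib3, and in 2.25% of the promoters of tested genes and 3.97% of all 32851. The first counts are of genes with a match in any promoter and the shares are of promoters, so they are unlike measures. The list and the element were chosen for this response with earlier results known, so no conclusion is drawn from the counts. The element also stood in the promoter of Slc7a11, a called gene of the NRF2 list described next. The sequences are shown because these 3 genes rose and carry the element. They run 5′ to 3′ on the gene's strand, with the element or its reverse complement in capitals, and a match describes letters only. For Fgf21 and Slc7a11 the 250 bases before the start are given, and for Trib3 the 30 bases around a match that lies after the start.
Fgf21 (chr7:45615491-45615740, minus strand): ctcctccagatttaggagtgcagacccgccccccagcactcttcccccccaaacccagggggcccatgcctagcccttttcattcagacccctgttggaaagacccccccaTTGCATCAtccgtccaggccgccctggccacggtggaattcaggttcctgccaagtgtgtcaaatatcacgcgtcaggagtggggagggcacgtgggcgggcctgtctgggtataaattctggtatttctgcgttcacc
Slc7a11 (chr3:50443614-50443863, minus strand): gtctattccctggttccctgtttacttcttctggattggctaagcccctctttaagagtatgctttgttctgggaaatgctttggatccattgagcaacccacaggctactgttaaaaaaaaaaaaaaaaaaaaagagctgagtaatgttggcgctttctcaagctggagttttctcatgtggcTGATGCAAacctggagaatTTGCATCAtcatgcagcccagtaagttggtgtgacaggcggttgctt
Trib3 (chr2:152344028-152344057, minus strand): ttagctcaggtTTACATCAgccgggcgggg

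The match in Fgf21 begins 139 bases before the start, those in Slc7a11 begin 66 and 47 bases before it, and that in Trib3 begins at base 15 after it. The promoters of Mthfd2, Gdf15, Atf5 and Xbp1, which rose too, hold no match in this window.

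NRF2, encoded by Nfe2l2, switches on genes that detoxify oxidants and rebuild glutathione and thioredoxin. In its list 8 of 32 members rose and 1 fell, 28.1% called beside 3.72% of all genes tested. The list median was 0.30, beside 0.43 in KO_PBS against WT_PBS. Nqo1, a quinone reductase, read 27.2, 16.0 and 21.9 in wild-type and 48.0, 48.2 and 47.8 in treated mice, 2.23-fold higher (log2 1.16 ± 0.18, adjusted p = 0.0118). Thioredoxin Txn1 read 48.0, 46.0 and 44.9 against 69.4, 81.3 and 66.2 (log2 0.63 ± 0.09, adjusted p = 0.00985), and its reductase Txnrd1 rose by 0.72 ± 0.13 (adjusted p = 0.0208). Srxn1, or sulfiredoxin, was 3.12-fold higher at 121, 207 and 99.8 against 49.8, 35.7 and 45 (adjusted p = 0.0236). Nfe2l2 itself rose by 0.50 ± 0.10 (adjusted p = 0.0227) and the oxidase Aox1 by 0.61 ± 0.14 (adjusted p = 0.043).

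Members of the NRF2 list at low levels rose too. Slc7a11, the cystine transporter, had 3, 1 and 2 reads in wild-type and 26, 50 and 12 in treated libraries (adjusted p = 0.0393), and Gsta1, a glutathione transferase, 1, 0 and 0 reads against 33, 22 and 9 (adjusted p = 0.0227). Both stood at or under 3 reads in each wild-type library, so no fold is given. The malic enzyme Me1, which also serves fat synthesis, fell by 0.50 ± 0.11 (adjusted p = 0.04), a call that ended without the scaling factors. Without WT_PBS mouse 3 no member was called, and 2 rose without KO_secGAA mouse 1, without KO_secGAA mouse 2 or without WT_PBS mouse 2. Nqo1 and Txn1 lost their calls without WT_PBS mouse 3 only (adjusted p = 0.0545 each), and the highest value over the 9 members was 0.158.

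Of 24 lipid and cholesterol synthesis genes 3 fell and none rose, 12.5% called beside 3.72% of all genes tested. Their median was -0.52, beside -0.37 in KO_PBS against WT_PBS. Srebf1, the transcription factor that drives fatty acid synthesis, read 115, 90.2 and 113 in wild-type, 38.3, 42.1 and 48.0 in treated and 30.8, 33.5 and 45.7 in untreated knockout mice. It was 2.46-fold below wild type (log2 -1.30 ± 0.16, adjusted p = 0.00343), and its call and that of Scd2 held without any 1 mouse. Cyp51, a demethylase of cholesterol synthesis, read 7.44, 6.22 and 6.03 in wild-type and 4.01, 3.80 and 4.504 in treated mice (log2 -0.61 ± 0.14, adjusted p = 0.0405), a call that ended without any 1 mouse but KO_secGAA mouse 3 (up to 0.134) and without the scaling factors. Fasn, the fatty acid synthase, had a log2 difference of -2.22 ± 0.69 and missed the threshold (adjusted p = 0.106). Fasn ranged from 68.0 to 304 within the wild-type group. The adipocyte marker list averaged 1.05, -0.16 and -0.88 in the wild-type mice and 0.38, 0.68 and -0.87 in the treated mice, and its part in the result was not tested.

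Polyamine synthesis, which makes spermidine and spermine, had 2 fallen and no risen genes among 12, 16.7% called beside 3.72% of all genes tested. The list median was -0.20. Amd1, the decarboxylase that supplies its propylamine groups and is abundant in muscle, read 1579, 1160 and 1405 in wild-type, 534, 663 and 956 in treated and 213, 298 and 256 in untreated knockout mice. The treated mice were 1.97-fold below wild type (log2 -0.98 ± 0.21, adjusted p = 0.0355), and near-identical copies of the gene make its count less certain. Sms, the spermine synthase, fell by 0.76 ± 0.13 (adjusted p = 0.0146). The call of Amd1 ended without any 1 mouse but KO_PBS 1, KO_PBS 2 and KO_secGAA 3, and that of Sms without KO_secGAA mouse 1 or 2 or WT_PBS mouse 3 (up to 0.127). Of 24 cell cycle inhibitors and p53 targets 3 rose (12.5% called, beside the same 3.72%). They were Eda2r and Gdf15, given above, and Cdkn2a, whose products include the inhibitor p16. Cdkn2a had 5, 0 and 10 reads in wild-type and 191, 152 and 35 in treated libraries (log2 3.44 ± 0.72, adjusted p = 0.0333), and its call ended without any wild-type mouse or without KO_secGAA mouse 1 or 2 (up to 0.124). Its log2 difference depends on the offset added to such low values, and the call also ended with an offset of 2.

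**Figure D4:**
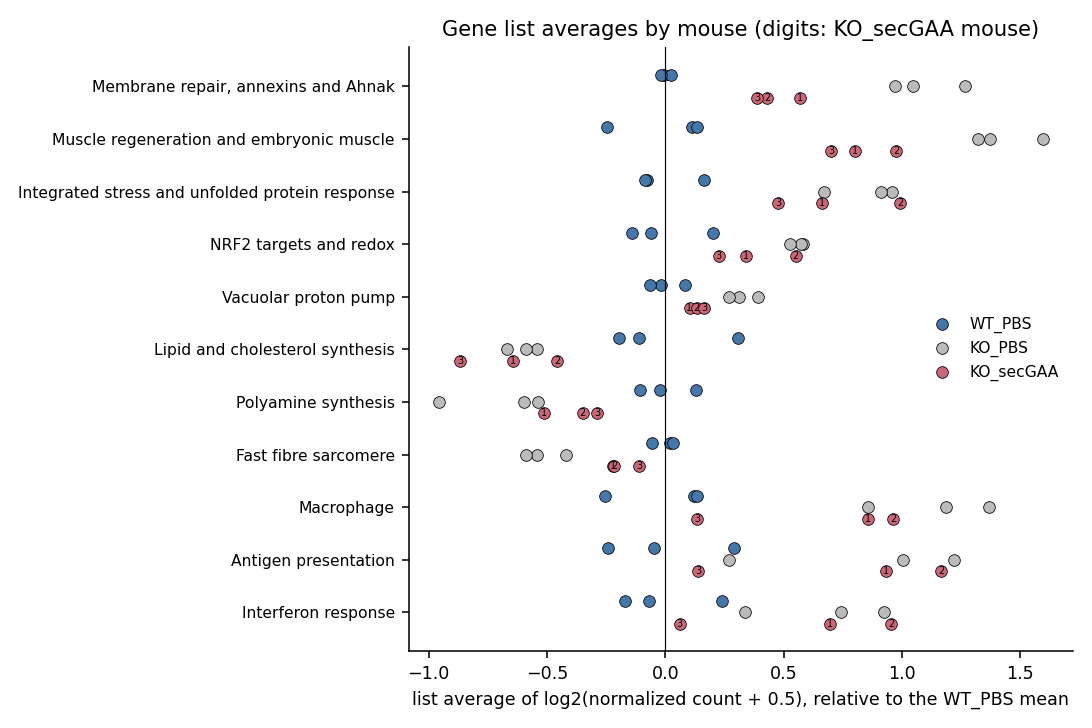
Average of each gene list by mouse, in log2 units from the mean of the wild-type mice (horizontal axis), for 11 lists, with digits marking KO_secGAA mice 1, 2 and 3. Membrane repair, regeneration and stress lists lie above wild type in all 3 treated mice, while treated mouse 3 lies near wild type for macrophage, antigen presentation and interferon lists.

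Immune transcripts differed between the treated mice. Of 29 macrophage markers tested 2 rose and none fell, 6.90% called beside 3.72% of all genes tested, and the list median was 0.64. Cd68, a lysosomal protein of macrophages, read 5.85, 8.35 and 5.44 in treated and 4.42, 2.42 and 2.70 in wild-type mice (log2 0.95 ± 0.22, adjusted p = 0.0469). Mpeg1, a pore-forming protein of phagocytes, read 13.1, 12.8 and 6.88 against 2.84, 5.45 and 3.37 (log2 1.37 ± 0.30, adjusted p = 0.0373). The list average was 0.86, 0.96 and 0.13 in treated mice 1, 2 and 3 and -0.25 to 0.13 in wild-type mice, and its summed level 197 to 410 against 145 to 220. Treated mouse 3 thus lay at the top of the wild-type range. Without KO_secGAA mouse 3, 6 macrophage markers were called, and without KO_secGAA mouse 1 or 2 or WT_PBS mouse 3 none was. The calls of Cd68 and Mpeg1 also ended without several other mice (adjusted p up to 0.159).

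Of 32 interferon response genes 1 rose, 3.125% called beside 3.72% of all genes tested, with a median of 0.56. The risen gene was Igtp, an interferon-induced GTPase, at 28.9, 26.7 and 17.2 against 10.1, 8.40 and 12.9 (log2 1.16 ± 0.24, adjusted p = 0.0303), a call that ended without any wild-type mouse or without KO_secGAA mouse 1 or 2 (up to 0.117). The interferon list average ran from 0.06 to 0.95 in treated mice and from -0.17 to 0.24 in wild-type mice, so the groups overlapped. All 19 antigen presentation genes had positive log2 differences, with a median of 0.66, and none was called. At an unadjusted p under 0.05 by limma 7 passed, and DESeq2 called 6, beside 2818 and 1022 of all 13089 genes tested. H2-Aa, a class II chain, read 58.8, 67.5 and 37.7 in treated and 29.9, 22.7 and 17 in wild-type mice (adjusted p = 0.0586). The antigen presentation list average was 0.93, 1.17 and 0.14 in treated mice 1, 2 and 3 and -0.24 to 0.29 in wild-type mice. Treated mouse 3 thus lay within the wild-type range, and 5 members were called without it. Igkc, the kappa light chain made by plasma cells, read 190, 230 and 3.64 in treated mice, 3.32, 1.16 and 0.481 in wild-type mice and 6.30, 4.29 and 76.1 in untreated knockout mice. Its log2 difference of 4.94 ± 1.49 missed the threshold (adjusted p = 0.0965). Of the 15 B and plasma cell markers 7 were tested, with summed levels of 628, 557 and 69.4 in treated mice and 435, 147 and 219 in wild-type mice, so the groups overlapped, and Ms4a1 and Cd79a were not among the genes tested.

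**Figure D5:**
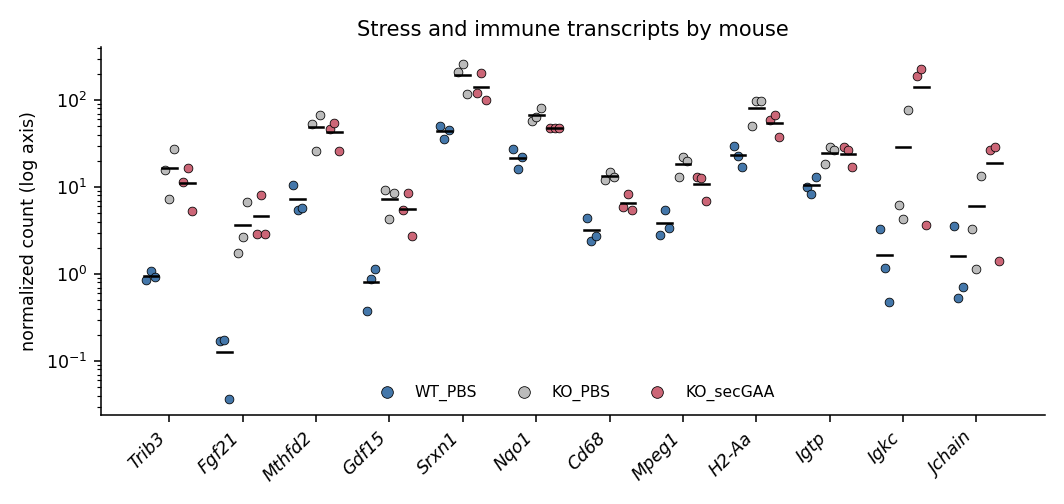
Normalized counts by mouse (vertical log axis) of stress response and immune genes, with 3 mice per group as points and group means as lines. Stress genes such as Trib3 lie above wild type in all 3 treated mice, while Igkc and Jchain are high in 2 treated mice and near wild type in the other.

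The remaining lists held 0 to 3 calls each. In the extracellular matrix list 1 of 41 rose and 2 fell, 7.32% called beside 3.72% of all genes tested. The growth factor Tgfb1 rose by 1.34 ± 0.26 (adjusted p = 0.0232), and the protease Mmp9 and the small proteoglycan Ogn fell by 1.62 ± 0.33 and 0.43 ± 0.09 (adjusted p = 0.0324 each). Rps7 was the single risen gene of 52 cytosolic ribosomal proteins (1.92% called), at 164, 194 and 195 against 79.6, 76.5 and 78.5 (log2 1.23 ± 0.19, adjusted p = 0.0106), and reads of its processed copies may share its count. The complement regulator Cd55 (log2 0.53 ± 0.10), the proteasome subunit Psmd11 (0.51 ± 0.11) and the T and NK cell marker Cd2, at 15, 19 and 18 reads against 4, 0 and 6, rose with adjusted p of 0.0189, 0.0346 and 0.0319. Each was the single called gene of its list, of 17 complement genes (5.88%), 34 proteasome subunits (2.94%) and 4 T and NK cell markers (25%), beside the same 3.72%. Of 20 T and NK cell markers 4 were tested, 2 of them higher and 2 lower in treated mice. Their summed level was 10.9 to 13.5 in treated and 11.4 to 20.1 in wild-type mice, so the groups overlapped. Immediate early and clock genes respond to handling and time of day. Of 24 immediate early genes 2 rose, Ier3 and Myc (8.33% called), and of 19 clock genes 1 rose, Per2 (5.26%), beside the same 3.72%. Ier3, Myc and Per2 rose by 0.93 ± 0.19, 1.35 ± 0.28 and 1.39 ± 0.33 (adjusted p = 0.0324, 0.0334 and 0.0478). Each of these 10 calls ended without WT_PBS mouse 3, and all but that of Rps7 also without other mice (adjusted p up to 0.128). No member was called in 3 further functional lists: 21 small heat shock proteins and chaperones, with a median of 0.41, 24 genes of the dystrophin complex, with 0.11, and 24 aminoacyl-tRNA synthetases, with -0.02. At an unadjusted p under 0.05 by limma 8, 6 and 2 of them passed, beside 2818 of all 13089 genes tested. DESeq2 called 5, 2 and 1 of them, beside 1022 of all genes tested. Mt3 was the single called gene of 12 metallothioneins and zinc transporters, and Aurka, which fell, that of 12 proliferation genes (8.33% called in each list). Limma called no marker of fibroblasts, adipocytes, endothelium, smooth muscle, Schwann cells, satellite cells, tendon, neutrophils, red cells, B and plasma cells or liver, nor of the muscle fibre itself. In these lists 0 to 5 members passed at an unadjusted p under 0.05 by limma, and DESeq2 called 0 to 2, beside the same 2818 and 1022.

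In the treated mice 8 of 13089 genes tested were called against both other groups in 1 direction, 4 higher and 4 lower. The 6 of them with names other than predicted ones follow. Ddit4l, an inhibitor of mTOR signalling, read 296, 294 and 328 in treated mice, 207, 235 and 184 in wild-type mice and 137, 171 and 177 in untreated knockout mice. It was higher than in wild-type mice by 0.56 ± 0.12 (adjusted p = 0.0384) and than in untreated knockout mice by 0.92 (adjusted p = 0.005). Cpeb2, which regulates translation, read 42.7, 36.4 and 38.0 in treated mice, 24.4, 22.2 and 22.2 in wild-type and 22.8, 27.0 and 27.4 in untreated knockout mice (log2 0.75 ± 0.10 against wild type, adjusted p = 0.00656). Fem1c, a substrate receptor of an ubiquitin ligase, rose in the same way by 0.74 ± 0.13 (adjusted p = 0.0155). Tnfrsf21, the death receptor DR6, read 9.999, 8.70 and 9.26 in treated, 20.3, 16.6 and 20.02 in wild-type and 14.1, 14.1 and 21.6 in untreated knockout mice (log2 -0.98 ± 0.17, adjusted p = 0.0157). Mpnd and Cyp51 were also lower against both groups, with Mpnd at 37.7, 39.7 and 42.2 against 63.4, 63.2 and 65.8 in wild-type mice. These 6 genes were chosen as called in the same direction against both groups, without overlap with either. That the wild-type and untreated knockout mice lay on the same side of the treated mice follows from this choice. Since the comparisons share the treated libraries, the second call is not independent of the first. The wild-type calls of Cpeb2 and Mpnd held without any 1 mouse, those of Fem1c and Tnfrsf21 ended without KO_secGAA mouse 2 or WT_PBS mouse 3, and that of Ddit4l ended without any of 6 mice (KO_PBS 2, any treated mouse, WT_PBS 1 or 3; adjusted p up to 0.145).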

How the data were processed

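Polyadenylated RNA of quadriceps muscle was sequenced in single-end mode at 61 bp, per the labels' protocols. Per the submitters' processing notes, the build was GRCm38 and the tools included RSEM, cutadapt, CASAVA, edgeR and limma. The sources used here do not give their roles or versions, or whether counting used strand. The deposited signal is normalized by the authors: each value is the reads plus 0.5 over a TMM-scaled library size, on the scale of counts per 1e+06 reads. Whole reads came back for 100% of 118044 values (tolerance 1e-06), and the edgeR test on these recovered reads called 503 genes.

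The values are therefore no raw counts, and limma 3.58.1 in R 4.3.3 replaced the edgeR test planned for raw counts. It was run on log2(value + 0.5), with group means over all 9 libraries, a trend and 6 residual degrees of freedom, after removing 27 of 13116 genes that did not reach 1 in 3 libraries. Fold changes are on that log2 scale, which understates changes of low genes, and every adjusted p is from limma unless another tool is named. Intervals given as ± are standard errors. A list median is over its tested members, and a list average is each mouse's mean deviation from the wild-type mean. Coordinates come from GENCODE M21 (GRCm38), matched for 13077 genes. The fit was run on simulated reads with known changes to check the direction of its median changes. Its rate of false calls is not given here.

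Named were Gaa, the 12 largest rises and falls and the 6 smallest p, up to 4 called genes of each list (2 by smallest p where none was called), and genes called against both other groups; predicted genes were left out. Named beyond this rule, after their values were seen, were Mstn, Ampd3, Anxa1, Anxa2, Srxn1, Slc7a11, Gsta1, Aox1, Me1, Atf5, Xbp1, Asns, Hexa, Lamp1, Ctsd, Sqstm1, Gys1, Pygm, Fasn, Mt1, Mt2, H19, Chrna1, Jchain, Ckm, Myh4 and the genes of the closing section's other observations. The comparison, the 48 gene lists and the motif were chosen with earlier results of these data known. Alternatives were edgeR 4.0.16, DESeq2 1.42.0, voom, other offsets, filters, scalings and weights, a fit of 6 samples, and leaving out each mouse.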

Additional observations from a re-analysis of the deposited data

How the results depend on the processing

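Gaa kept its direction and its call under all 21 alternatives. The 487 called genes became 1022 with DESeq2, 983 with sample weights, 1007 without scaling factors and 308 without a trend, and 94 to 503 when 1 mouse was left out. The 187 genes changed at least 2-fold became 382, 309 and 285 with the first 3 of these, 118 with an offset of 2, and 70 to 256 with 1 mouse left out. The 239 risen genes became 487, 469 and 868, and 60 to 278. The 248 fallen genes became 535, 514, 139 and 143 in the same order, 163 with the 6 samples alone, and 34 to 243. The cause of these shifts was not tested, except that without scaling factors the median of all genes moved to 0.155. DESeq2 shared 99.8% of the 487 genes, edgeR 95.7% and voom 75.4%.

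Of the 120 genes named by rule, 74 were called; 23 of these kept the call in every alternative and 51 lost it in at least 1, 50 of them without WT_PBS mouse 3. None reversed. Without scaling factors the medians of 11 of the 48 lists changed sign, those of glycogen genes, galectins, oxidative phosphorylation, insulin signalling, aminoacyl-tRNA synthetases, extracellular matrix, proteasome, clock, muscle fibre, endothelial, and smooth muscle genes. No paired analysis was possible because the labels give the groups no shared replicate numbers. With 3 mice a group and wild-type libraries deeper than treated ones, genes at few reads in wild type have no fold that can be relied on.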

Other observations

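The genes given here are single called genes of treated knockout against wild-type muscle, chosen after their values were seen, and stand for no gene group. The translation factor Eef1a1, which adult fibres largely replace with Eef1a2, read 908, 1041 and 1425 in treated, 443, 359 and 313 in wild-type and 1403, 1612 and 1757 in untreated knockout mice (log2 1.59 ± 0.18, adjusted p = 0.00291), and processed copies of Eef1a1 may share its reads. The microtubule-associated proteins Map1a and Map1b rose by 1.75 ± 0.18 and 1.25 ± 0.15 (adjusted p = 0.00199 and 0.00293). Map1a stood at 64.8, 42.6 and 40.3 in treated and 11.2, 14.6 and 16.5 in wild-type mice. The sphingolipid enzymes Sgms2, a sphingomyelin synthase, and Cers6, a ceramide synthase, rose 3.35-fold and 2.73-fold (adjusted p = 0.00294 and 0.00767). The imprinted gene Peg3 read 53.6, 36.7 and 27.6 in treated, 46.4, 38.3 and 28.5 in untreated knockout and 8.74, 11.6 and 9.29 in wild-type mice (adjusted p = 0.00428). Dusp4, a phosphatase of MAP kinases, and Osbpl3, an oxysterol-binding protein, rose 4.20-fold and 4.55-fold (adjusted p = 0.00293 and 0.00641).

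Tfrc, the transferrin receptor, read 24.4, 27.3 and 21.2 in treated and 55.3, 72.2 and 60.1 in wild-type mice (log2 -1.35 ± 0.19, adjusted p = 0.0068), and Alas1, the first enzyme of haem synthesis, 101, 100 and 110 against 165, 164 and 151 (log2 -0.62 ± 0.08, adjusted p = 0.00343). Cd24a, a surface glycoprotein, fell 2.35-fold to 166, 173 and 187 from 366, 410 and 470 (adjusted p = 0.00147), and Clu, the secreted chaperone clusterin, 2.79-fold (adjusted p = 0.00336). The potassium channel Kcnn3, known from denervated muscle, rose 3.78-fold (adjusted p = 0.00698), while Cacng7, of the calcium channel gamma family, fell 3.17-fold (adjusted p = 0.00042). The calls given so far in this section held without any 1 mouse, with adjusted p up to 0.0404. Irgm2, Trdc, Kcng4, Slc7a1 and Cth were also looked at and called. Their calls ended when some single mice were left out (adjusted p up to 0.133). That the calls given here held therefore follows in part from the choice of genes.

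Lep, the adipocyte hormone leptin, read 32.3, 16.3 and 7.46 in treated, 3.19, 3.76 and 1.74 in wild-type and 0.163, 2.48 and 1.43 in untreated knockout mice, and its difference from wild type missed the threshold (log2 2.32 ± 0.60, adjusted p = 0.0639). The H2-T10 gene, of a family with near-identical members, rose 4.82-fold, at 8.06, 6.25 and 4.65 against 0.514, 1.09 and 1.15, and its call held without any 1 mouse (adjusted p = 0.00225, up to 0.0139).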
